A study of Mus musculus with 15 samples.

Results

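The 10 genes followed here keep iron and zinc in balance in the liver, and their mRNA was compared in fresh and cultured mouse hepatocytes. They were Hjv, Hamp, Tfr2, Trf, Tfrc, Slc40a1, Slc39a14, Mt1, Mt2 and Slc30a1. A gene was measured where the platform annotation gave a probe set its symbol alone, synonyms included. Of the 10 genes, 9 had such probe sets, 23 in all out of 34958 probe sets with 1 symbol (18194 genes). Trf, which encodes the iron carrier transferrin, shares its probe set with Srprb in the annotation and has no value here.

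The study compared primary hepatocytes of male C57BL/6 mice grown as a monolayer with the same cells grown as three-dimensional aggregates. Total RNA was hybridised to 15 Affymetrix arrays in 5 groups of 3 independent biological replicates. The fresh cells (t0) were taken directly after isolation and serve as the baseline. The other 4 groups were kept on tissue culture dishes (TCD, monolayer) or inside rotating wall vessels (RWV, aggregates) for 4 h or for 24 h. The labels name no agent or genetic change in any group, so strain, sex and isolation are what all of them share. Each value below is a log2 change from the median of the 3 fresh arrays, so a value of 0 is the fresh level and no absolute level is known. Where a group is near background, a very large change depends on how GCRMA treats weak signals. Replicate 2 of TCD at 4 h had a median of 1.08 over 18 hybridisation control probe sets, against -0.73 to 0.18 on the other 14 arrays. The number of arrays limits the precision of every value.

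Iron leaves cells through ferroportin, the product of Slc40a1, and hepcidin, the peptide hormone encoded by Hamp in hepatocytes, binds ferroportin and has it degraded. Hamp is transcribed when bone morphogenetic proteins signal through their receptors and SMAD proteins, a signal for which hemojuvelin (Hjv) is a coreceptor, and when interleukin-6 signals through STAT3. Metallothioneins bind zinc and copper, and the metal-responsive factor MTF-1 drives their genes and that of the zinc exporter Slc30a1 when zinc is high.

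A gene was counted through its most variable probe set, and a call means a limma adjusted p below 0.05 over all 22109 probe sets tested. So counted, 3 of the 9 genes, Hjv, Slc39a14 and Mt1, were called higher in RWV than in TCD after 24 h. Hjv was called by both of its probe sets. Mt1 was lower in RWV by its other probe set (-0.42, adjusted p = 0.147), which leaves 2 genes called, and Slc39a14 was not called by the mean of its probe sets (0.45, adjusted p = 0.185). Among all 12424 genes tested 15.3% were called in that comparison, 8.37% as higher in RWV. After 4 h 1 of the 9 was called, Slc40a1, higher in RWV, against 6.07% of all genes (5.39% higher). The difference between the vessels itself changed from 4 h to 24 h in 3 of the 9, again Hjv, Slc39a14 and Mt1, against 12.5% of all genes (4.89% called higher). The median difference of the 9 genes at 24 h was 0.31, and that of all genes was -0.00.

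The cultures were also compared with fresh cells and across time. Against fresh cells 5 of the 9 were called in TCD at 4 h (3 higher and 2 lower, 25.1% of all genes called) and 4 in RWV at 4 h (3 higher and 1 lower, 29.5%). At 24 h 7 were called in TCD (2 higher and 5 lower, 56.1%) and 5 in RWV (2 higher and 3 lower, 49.8%). From 4 h to 24 h 7 were called in TCD (55.5% of all genes) and 7 in RWV (41.4%). The splits turn on Mt1, whose probe sets disagree. Counted through its other probe set they were 4 higher and 1 lower in TCD and in RWV at 4 h, 3 higher and 4 lower in TCD at 24 h, and 3 higher and 2 lower in RWV at 24 h. Counts over 9 genes are too few to set against these shares. The comparisons with fresh cells share the same 3 fresh arrays.

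**Figure D1:**
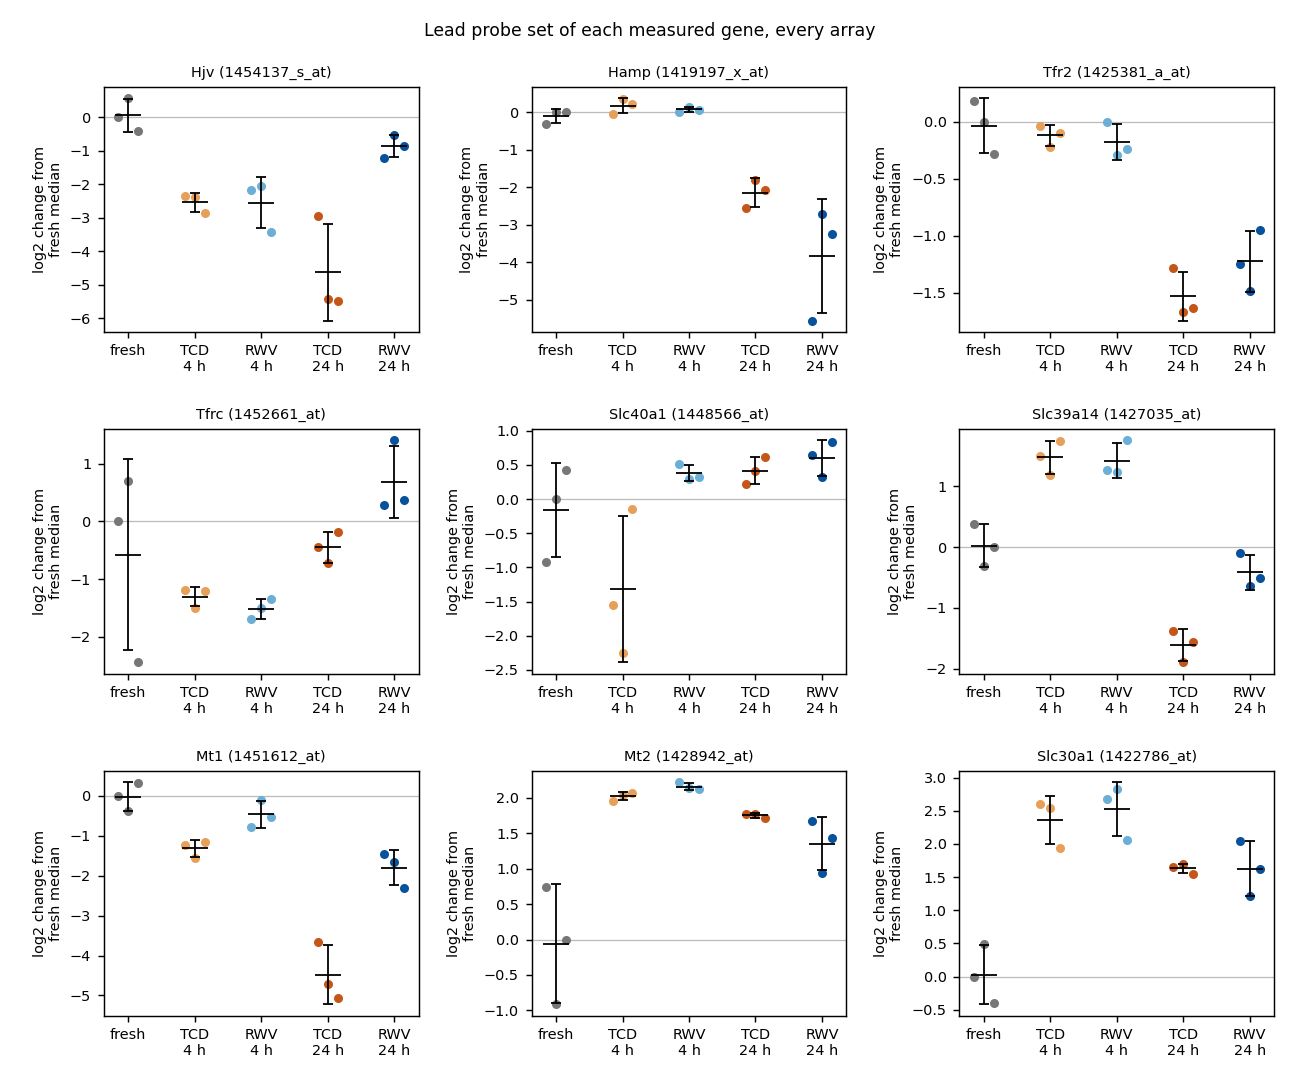
Log2 change from the fresh median (y axis, its range differs between panels) for the most variable probe set of each of the 9 measured genes, by group (x axis). Points are single arrays, the horizontal bar is the mean and the whisker the SD of 3 arrays. Hjv and Mt1 lie lowest in TCD at 24 h, and Hamp lies lowest in RWV at 24 h.

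The hormone is described first. Hamp lies on chromosome 7 at chr7:30942368-30944029 of GRCm38.p6, next to the paralog Hamp2 at chr7:30922372-30924181. The 250 bases before the start of each gene are shown because the sites through which SMAD proteins and STAT3 are known to act on hepcidin lie there. Both sequences come from RefSeq (GRCm38.p6, minus strand, written 5′ to 3′), from chr7:30944030-30944279 for Hamp and from chr7:30924182-30924431 for Hamp2. Capitals mark the core of the BMP response element, GGCGCC, and a match to TTCNNNGAA, the form that STAT proteins bind.
Hamp: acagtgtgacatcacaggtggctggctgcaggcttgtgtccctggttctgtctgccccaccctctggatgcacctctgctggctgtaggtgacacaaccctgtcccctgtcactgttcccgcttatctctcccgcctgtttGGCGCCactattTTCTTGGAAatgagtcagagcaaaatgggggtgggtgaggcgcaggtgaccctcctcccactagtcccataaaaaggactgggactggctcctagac
Hamp2: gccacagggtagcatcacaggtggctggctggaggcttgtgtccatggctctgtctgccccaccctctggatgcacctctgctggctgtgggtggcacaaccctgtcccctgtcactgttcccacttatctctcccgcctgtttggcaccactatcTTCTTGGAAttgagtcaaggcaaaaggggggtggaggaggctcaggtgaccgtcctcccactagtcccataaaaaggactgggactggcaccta
The window of Hamp held GGCGCC at -109 to -104 and TTCTTGGAA at -97 to -89, counted back from the start. The window of Hamp2 held TTCTTGGAA at -94 to -86 and no GGCGCC. The windows were identical at 89.72% of 253 aligned columns, and 1 of their 20 substitutions fell inside the element. It was G145A, with Hamp's base first and positions counted from 1 at the 5′ end of the Hamp window. Of 32851 windows of the same length in the table, searched on both strands, 9.59% held GGCGCC and 7.02% held TTCNNNGAA. A match of letters is a description, not a site.

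Hamp mRNA was near the fresh level after 4 h and far below it after 24 h in both vessels. The fresh arrays read -0.33, 0.00 and 0.01. At 4 h TCD read -0.05, 0.34 and 0.20, and RWV read 0.00, 0.14 and 0.06. At 24 h TCD read -2.57, -1.80 and -2.09, and RWV read -5.55, -2.71 and -3.26. All 6 arrays of 24 h lay below all 9 others, and all 3 RWV arrays lay below all 3 TCD arrays, 1 of them by far. The fall from fresh cells was 2.04 ± 0.53 log2 units in TCD (SE, n = 3, adjusted p = 0.00591), a 4.13-fold drop. In RWV Hamp fell by 3.73 ± 0.53 (adjusted p = 9.44e-05), a 13.3-fold drop.

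The gap between the vessels at 24 h was -1.69 ± 0.53 and was not called (adjusted p = 0.0538), while array weights (adjusted p = 0.038) and centring on reference genes (adjusted p = 0.0381) gave a call. Of the 9 reference genes 2 were themselves called higher and 2 lower in RWV at that time. By the other Hamp probe set the gap was -1.52 ± 0.53 (adjusted p = 0.0816), where the groups overlapped. Replicate 1 of RWV was the lowest array by both probe sets, and without it the gap was -0.83 and was called (adjusted p = 0.0334). Without replicate 2 of RWV it was -2.26 and was called too (adjusted p = 0.0145). At 24 h the other probe set read -2.32, -1.62 and -1.73 in TCD and -5.12, -2.15 and -2.98 in RWV. The 2 probe sets ran together (Pearson's r = 0.998 over 15 arrays, a description). As both come from the same arrays, they are not independent measurements.

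Hamp2, the paralog that lacks the iron-lowering action of Hamp in mice, was read by the probe set 1436643_x_at. It fell by 2.68 ± 0.94 in TCD at 24 h (adjusted p = 0.0296) and fell by 4.87 ± 0.94 in RWV (adjusted p = 0.000937). Its values were -3.67, -2.40 and -0.61 in TCD at 24 h and -6.19, -3.78 and -3.30 in RWV. Replicates 1 and 2 of RWV lay below all TCD arrays and replicate 3 lay within their range, and the difference of -2.19 was not called (adjusted p = 0.156). Replicate 3 was the highest array of its group in every group for this probe set. Probe sets ending in x may bind several similar transcripts, and Hamp and Hamp2 are close copies, so their signals cannot be fully separated.

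Hjv carried the largest vessel difference among the 9 genes. Hemojuvelin is anchored in the hepatocyte membrane and strengthens BMP signalling, and its gene lies at chr3:96525163-96529216 of GRCm38.p6. The fresh arrays read 0.00, 0.57 and -0.39. At 4 h TCD read -2.36, -2.38 and -2.87, and RWV read -2.18, -2.06 and -3.42. At 24 h TCD read -2.95, -5.42 and -5.50, and RWV read -1.20, -0.52 and -0.84.

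Both vessels had lost Hjv mRNA alike at 4 h, and afterwards they parted. At 24 h every RWV array lay above every TCD array and above every 4 h array, and below every fresh array. RWV exceeded TCD by 3.77 ± 0.59 (adjusted p = 0.00115), a 13.6-fold difference, and by 3.58 ± 0.50 with the other probe set (adjusted p = 0.000523). At 4 h the difference was -0.02 ± 0.59 (adjusted p = 0.991). The change in the vessel difference was 3.79 ± 0.84 (adjusted p = 0.0135). Replicate 1 of TCD at 24 h was the highest array of its group. Both the 24 h difference and its change from 4 h were called in all 24 alternative settings.

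Relative to fresh cells Hjv fell by 2.60 in TCD (adjusted p = 0.00718) and fell by 2.61 in RWV (adjusted p = 0.00589) at 4 h. In TCD it fell by 4.68 at 24 h (adjusted p = 2.42e-05). In RWV at 24 h the change of -0.91 was not called (adjusted p = 0.238), but with arrays centred on reference genes it was -1.64 and was called (adjusted p = 0.0194). The 9 reference genes themselves had a median change of 0.77 there, with 6 called higher and 1 lower, so centring lowered every gene. Between 4 h and 24 h Hjv fell by 2.09 in TCD (adjusted p = 0.0104) and rose by 1.70 in RWV (adjusted p = 0.0387). The rise in RWV was lost in 6 of 15 fits with 1 array left out, and the fall in TCD was lost without replicate 3 of TCD at 24 h (adjusted p = 0.0522). Hjv and Hamp, a coreceptor and the hormone whose gene it helps to switch on, took different courses over the 15 arrays (r = 0.02, a description over arrays that share groups).

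Tfr2, the transferrin receptor of hepatocytes that takes part in iron sensing, followed the course of Hamp in time and differed little between vessels. Its arrays at 24 h read -1.29, -1.67 and -1.64 in TCD and -1.25, -1.48 and -0.95 in RWV. Fresh and 4 h arrays all lay between -0.29 and 0.19, so the 24 h arrays stood apart from them, while the vessels overlapped. Tfr2 fell by 1.5 in TCD (adjusted p = 6.23e-06) and fell by 1.19 in RWV (adjusted p = 6.31e-05) at 24 h. The other probe set gave nearly the same values, falls of 1.53 and 1.19. The vessel difference was 0.31 (adjusted p = 0.265).

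**Figure D2:**
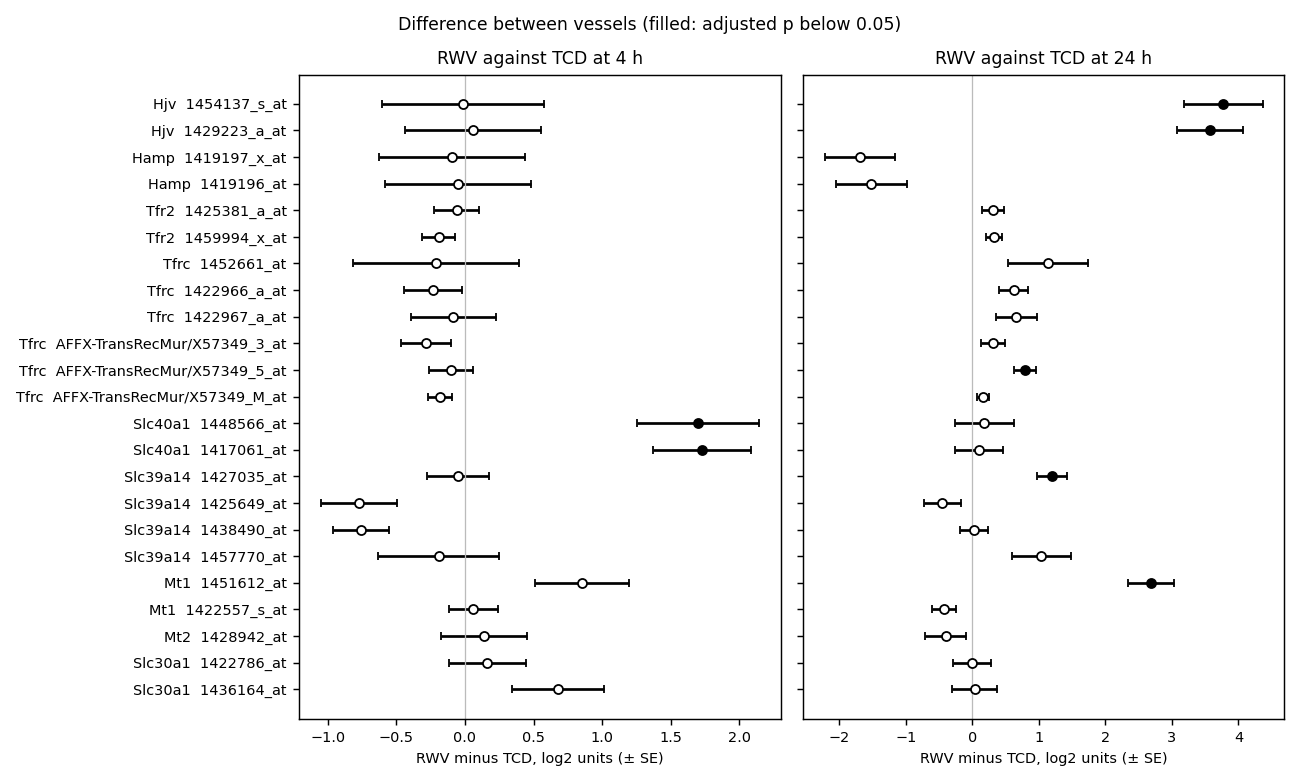
Difference between RWV and TCD (x axis, log2 units, with SE) at 4 h (left) and 24 h (right) for all 23 probe sets of the 9 genes (y axis); filled points have an adjusted p below 0.05. Both Slc40a1 probe sets were called at 4 h, and at 24 h the called probe sets were both of Hjv, 1 of Slc39a14, 1 of Mt1 and 1 control probe set of Tfrc.

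The other genes of the pathway from BMP to hepcidin were taken from a list of 20, of which 19 were tested and Erfe had no probe set of its own. At 24 h 1 was higher and 2 were lower in RWV, with a list median of -0.17, beside 15.3% of all genes called either way. Hfe, whose protein binds transferrin receptors and which is mutated in human hemochromatosis, was higher by 1.57 ± 0.33 (adjusted p = 0.00685). It read -1.41, -1.91 and -2.01 in TCD and -0.37, -0.17 and -0.06 in RWV. The fresh arrays of Hfe spread widely, at 0.00, 0.59 and -0.93. All 3 RWV arrays lay within that range, and all 3 TCD arrays lay below it. Bmp6, the ligand that reports liver iron, was lower in RWV (-1.01 ± 0.19, adjusted p = 0.00436). Its arrays read 0.85, 1.34 and 0.31 in TCD and -0.19, -0.21 and -0.12 in RWV. The type II receptor gene Bmpr2 was lower in RWV as well (-0.84 ± 0.24, adjusted p = 0.0379).

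In fresh liver Bmp6 comes mainly from sinusoidal endothelial cells. Of 7 endothelial markers 5 were tested, and 1 was called between the vessels at 24 h, beside 15.3% of all genes. It was Stab2, a scavenger receptor of sinusoidal endothelium, lower in RWV (-2.36 ± 0.30, adjusted p = 0.00031). It read 1.93, 1.05 and 1.74 in TCD and -0.96, -1.38 and -0.01 in RWV. Lyve1 (0.08), Clec4g (0.17) and Cdh5 (0.40) lay higher in RWV and Oit3 (-0.24) lower, none of them called. The median difference of the 5 markers was 0.08. The mean change of the 5 markers lay between -0.50 and -0.22 per array in TCD and between -1.0 and -0.33 in RWV, with Clec4g at -3.37 to -3.07 on all 6 arrays. The part of endothelial cells in the Bmp6 difference was not tested. In bulk RNA, fewer cells of a type and less RNA per cell cannot be told apart. At 4 h 1 of the 19 genes was called between vessels, beside 6.07% of all genes, with a list median of 0.19. It was Neo1, the receptor neogenin that binds hemojuvelin, higher in RWV by 1.09 (adjusted p = 0.0115). Its arrays read -2.38, -2.30 and -2.96 in TCD and -1.54, -1.38 and -1.46 in RWV, all below the fresh arrays.

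Id1, a direct target of BMP signals, rose while Hamp fell. At 24 h Id1 rose by 1.89 in TCD (adjusted p = 0.0263) and by 3.08 in RWV (adjusted p = 0.00178). Its arrays read 0.34, 2.30 and 2.48 in TCD and 1.57, 3.67 and 3.43 in RWV, against 0.00, -0.88 and 0.32 in fresh cells. Replicate 1 of TCD thus lay close to the highest fresh array of Id1. Its difference between vessels of 1.18 was not called (adjusted p = 0.285). Smad6, Smad7 and Atoh8 of the same list did not share this rise in both vessels. Smad6 read -0.18 to -0.16 on all 24 h arrays and -0.19 to -0.10 on all 4 h arrays. Whether this flat signal lay above background is not known from these values. Smad7 read 0.91, 0.84 and 1.06 in TCD and 0.10, 0.18 and 0.16 in RWV. Atoh8 read -0.55, -0.55 and -1.28 in TCD and -0.42, -0.49 and 1.56 in RWV. Tmprss6, the protease that cleaves hemojuvelin, fell by 1.11 in TCD (adjusted p = 5.63e-06) and fell by 0.99 in RWV (adjusted p = 2.27e-05). Of the 19 genes 8 were higher and 5 lower than fresh in TCD at 24 h, and 6 were higher and 3 lower in RWV. Of all genes 56.1% and 49.8% were called in these comparisons.

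**Figure D3:**
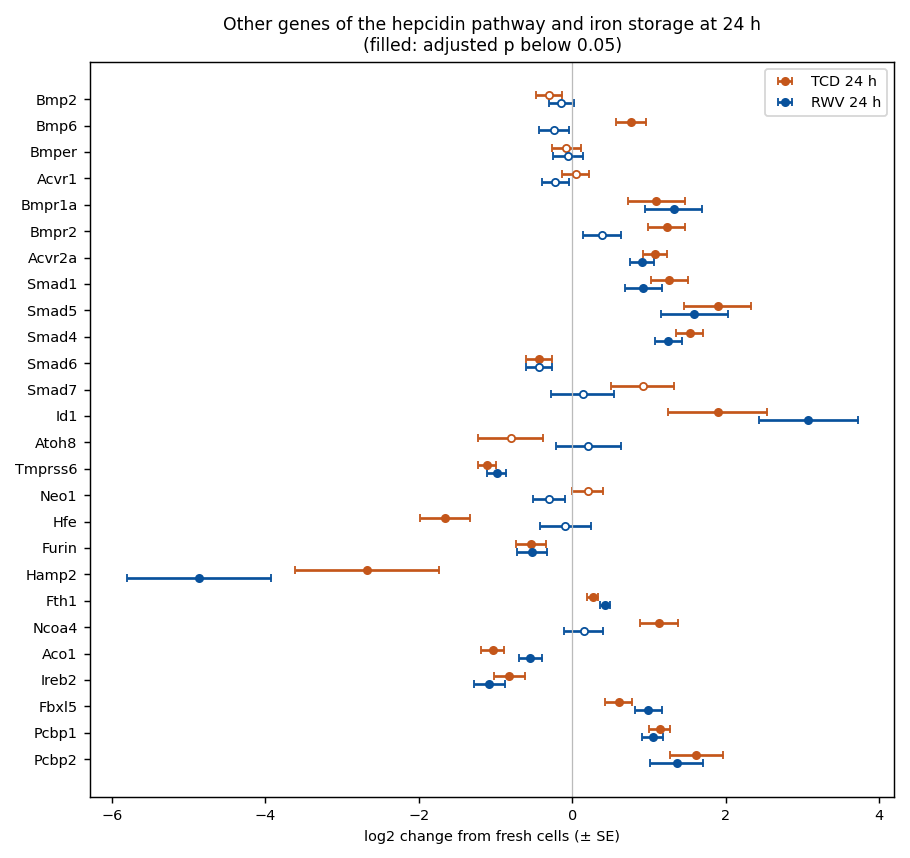
Log2 change from fresh cells at 24 h (x axis, with SE) of the tested genes of the hepcidin pathway and of iron storage (y axis) in TCD and RWV; filled points have an adjusted p below 0.05. Hfe lies near 0 in RWV and low in TCD, and Id1 lies above 0 in both vessels.

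Among the transporters of iron, Slc40a1 was the only member called between vessels at 4 h. In TCD at 4 h its probe set 1448566_at read -1.55, -2.26 and -0.15, and in RWV it read 0.52, 0.30 and 0.33. Fresh arrays read -0.92, 0.00 and 0.42. No TCD array reached the RWV arrays, and replicate 3 of TCD lay within the fresh range. The difference was 1.70 ± 0.44 (adjusted p = 0.0465), and by the other probe set 1.73 ± 0.36 (adjusted p = 0.017).

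This call rests on a narrow margin. It was kept in 3 of 15 fits with 1 array left out, where its adjusted p reached 0.148, and the lowest TCD array was replicate 2, whose hybridisation controls stood apart. Without that replicate the difference was 1.23 (adjusted p = 0.148). Against fresh cells Slc40a1 in TCD at 4 h changed by -1.15 (adjusted p = 0.0844, and 0.0488 with the replicate number as a block). The other probe set, 1417061_at, read -1.78, -2.18 and -0.71 in TCD and 0.14, 0.27 and 0.12 in RWV at 4 h, and it was called lower than fresh in TCD (-1.49, adjusted p = 0.00961), with replicate 3 within the fresh range. At 24 h all 6 arrays lay between 0.23 and 0.83, the vessel difference was 0.18 (adjusted p = 0.932), and from 4 h to 24 h Slc40a1 rose by 1.74 in TCD (adjusted p = 0.00565). Macrophages of the liver express Slc40a1 as well. Of 9 markers of Kupffer cells and macrophages 8 were tested. By limma 0 were called between vessels at 4 h (also 0 at an unadjusted p below 0.05), beside 6.07% of all genes. Their median difference was -0.18 at that time. Their mean change per array was 0.63 to 0.93 in TCD and 0.38 to 0.72 in RWV and was carried by Cd68, which read 7.24 to 7.50 in TCD and 6.89 to 7.56 in RWV. The median change of the 8 markers in TCD at 4 h was -0.04. Clec4f, a marker of Kupffer cells, read between -0.21 and 0.39 on all 6 arrays of 4 h. The part of these cells in the Slc40a1 difference was not tested.

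Tfrc encodes the transferrin receptor through which most cells take up iron, and its mRNA is stabilised when iron is low. Its most variable probe set 1452661_at read 0.00, 0.70 and -2.44 in fresh cells, so replicate 3 stood far below the others. At 4 h TCD read -1.20, -1.50 and -1.21, and RWV read -1.69, -1.49 and -1.35. At 24 h TCD read -0.45, -0.73 and -0.18, and RWV read 0.28, 1.40 and 0.36. The low end of the fresh range was replicate 3 alone. The changes from fresh at 4 h, -0.72 in TCD (adjusted p = 0.459) and -0.93 in RWV (adjusted p = 0.293), became -1.65 (adjusted p = 0.00367) and -1.86 (adjusted p = 0.00156) without it, both called. At 24 h all RWV arrays lay above all TCD arrays, yet the difference of 1.13 ± 0.61 was not called (adjusted p = 0.269). Leaving out the low fresh array gave a call (adjusted p = 0.0218). In RWV Tfrc rose by 2.19 from 4 h to 24 h (adjusted p = 0.0122), a call lost without replicate 2 of RWV at 24 h (adjusted p = 0.0542). Another probe set, 1422966_a_at, read 1.34, 1.53 and 0.94 in RWV at 24 h and 0.81, 0.32 and 0.83 in TCD, again without overlap. It was 1.10 above fresh in RWV (adjusted p = 0.000981), and its vessel difference of 0.62 was not called (adjusted p = 0.0765). The probe set 1422967_a_at stayed between -0.12 and 0.14 on all arrays but replicate 2 of RWV at 24 h, which read 1.69. The control probe set for the 5′ end read 1.16, 0.77 and 0.30 in RWV at 24 h and between -0.11 and 0.12 elsewhere. Its vessel difference was called at 24 h (0.79 ± 0.16, adjusted p = 0.00545), while the probe sets for the middle and the 3′ end were not.

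Slc39a14, a transporter that brings iron not bound to transferrin and zinc into hepatocytes, was read by 4 probe sets that did not follow the same course. The most variable, 1427035_at, read 1.50, 1.19 and 1.74 in TCD and 1.27, 1.24 and 1.75 in RWV at 4 h, all above the fresh arrays of 0.38, -0.32 and 0.00. It rose by 1.45 in TCD (adjusted p = 0.000589) and by 1.40 in RWV (adjusted p = 0.000661). At 24 h it read -1.37, -1.90 and -1.57 in TCD and -0.10, -0.65 and -0.51 in RWV. All RWV arrays lay above all TCD arrays, and TCD fell by 1.64 from fresh cells (adjusted p = 5.39e-05), while the change of -0.44 in RWV was not called (adjusted p = 0.138). With array weights that change was -0.58 (adjusted p = 0.0435) and with centring on reference genes -1.17 (adjusted p = 0.000602), both called. The reference genes themselves had a median change of 0.77 in that comparison. The vessel difference was 1.20 ± 0.23 (adjusted p = 0.00384), and it differed from that at 4 h by 1.25 ± 0.32 (adjusted p = 0.0272), a call lost in 6 of 15 fits with 1 array left out (adjusted p up to 0.0678).

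By 1425649_at, however, TCD at 24 h read 1.07, 1.31 and 0.79, above every fresh array, a rise of 1.27 (adjusted p = 0.0018). By that probe set the vessel difference at 24 h was -0.45 (adjusted p = 0.346). The direction of Slc39a14 in monolayers at 24 h is therefore uncertain, while at 4 h both of these probe sets rose in both vessels. At 4 h the second read 2.62, 2.43 and 2.94 in TCD and 1.92, 1.86 and 1.88 in RWV. The third, 1438490_at, rose at 4 h by 2.41 in TCD (adjusted p = 5.85e-06) and by 1.65 in RWV (adjusted p = 9.9e-05) and was back between -0.49 and 0.07 on all arrays of 24 h. For both, TCD lay above RWV at 4 h without overlap, by differences that were not called (-0.77, adjusted p = 0.142, and -0.76, adjusted p = 0.0558). The fourth, 1457770_at, had adjusted p from 0.0695 to 0.947 against fresh cells and differed by 1.04 between vessels at 24 h (adjusted p = 0.155). The mean over the 4 probe sets differed by 0.45 between vessels at 24 h and was not called (adjusted p = 0.185).

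The genes of iron storage were taken from a list of 8, of which 7 were tested. Between the vessels at 24 h 1 was higher and 1 lower in RWV, with a list median of -0.09, beside 15.3% of all genes called either way. Aco1, which encodes the iron regulatory protein IRP1, was higher by 0.49 (adjusted p = 0.0491), and Ncoa4, which carries ferritin to lysosomes, was lower (-0.99, adjusted p = 0.0197). Against fresh cells 5 were higher and 2 lower in TCD at 24 h. In RWV 4 were higher and 2 lower, beside the 56.1% and 49.8% of all genes called. The ferritin heavy chain gene Fth1 differed by 0.17 between vessels (adjusted p = 0.127).

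A list of 19 genes for uptake, export and use of iron and heme had 18 tested members. At 24 h 2 were higher and 1 was lower in RWV, with a median of 0.25, beside 15.3% of all genes called either way. Slc25a28, the mitochondrial iron importer, was higher by 1.05 (adjusted p = 0.00172) and Fech, which inserts iron into heme, by 0.49 (adjusted p = 0.0385). Hmox1, the heme oxygenase that frees iron from heme, was lower (-1.13, adjusted p = 0.0434). Hmox1 was already far above fresh cells at 4 h, by 6.83 in TCD and 6.81 in RWV, and was 5.31 and 4.17 above them at 24 h. At 4 h 1 of the 18 differed between vessels, beside 6.07% of all genes. It was Flvcr1, described as a heme exporter, higher by 1.34 in RWV (adjusted p = 0.02, median -0.04).

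Mt1 and Mt2 lie side by side on chromosome 8, Mt2 at chr8:94172618-94173567 and Mt1 at chr8:94178883-94180327, and Slc30a1 lies at chr1:191906697-191913248 (GRCm38.p6). The RefSeq windows of 250 bases before a start are shown for them. Metal response elements, to which MTF-1 binds, are known to lie near the starts of such genes in mice. They cover chr8:94178839-94179088 for Mt1, chr8:94172368-94172617 for Mt2 and chr1:191906531-191906780 for Slc30a1, all on the plus strand and written 5′ to 3′. The starts used for Mt1 and Slc30a1 lie inside the span given for the gene. Bases outside the windows were not searched, so the counts of matches do not cover the whole promoter of a gene. Capitals mark the core TGCACNC or TGCGCNC on either strand.
Mt1: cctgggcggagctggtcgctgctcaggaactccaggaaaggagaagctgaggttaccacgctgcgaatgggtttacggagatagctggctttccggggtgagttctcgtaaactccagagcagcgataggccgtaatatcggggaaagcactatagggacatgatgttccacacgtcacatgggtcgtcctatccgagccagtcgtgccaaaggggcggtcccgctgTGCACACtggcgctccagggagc
Mt2: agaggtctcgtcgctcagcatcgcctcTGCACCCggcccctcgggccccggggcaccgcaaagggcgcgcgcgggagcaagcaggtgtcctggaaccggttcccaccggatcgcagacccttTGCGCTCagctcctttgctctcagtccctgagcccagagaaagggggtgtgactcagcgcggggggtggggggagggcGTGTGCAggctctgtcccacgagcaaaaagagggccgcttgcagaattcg
Slc30a1: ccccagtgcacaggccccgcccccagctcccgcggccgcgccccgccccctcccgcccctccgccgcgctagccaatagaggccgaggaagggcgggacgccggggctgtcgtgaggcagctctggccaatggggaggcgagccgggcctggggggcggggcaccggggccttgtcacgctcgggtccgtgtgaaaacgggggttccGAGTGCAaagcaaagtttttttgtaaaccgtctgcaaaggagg
The Mt2 window held 3 matches, at -223 to -217, at -128 to -122 and, on the minus strand, at -50 to -44. The Mt1 window held 1, at -23 to -17, and the Slc30a1 window held 1 on the minus strand, at -43 to -37. The core occurred in 21.4% of all 32851 windows and 3 or more times in 1.26%. Of the other windows searched, 1 of Tfrc held 2 overlapping matches to the core, at -53 to -47 and, on the minus strand, at -50 to -44, and GGCGCC at -89 to -84. The 3 windows of Tfr2 held none of the motifs. Windows were matched for 6 of the 10 genes.

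Mt2 mRNA stood above fresh cells in every culture. Its fresh arrays spread widely, at 0.75, -0.92 and 0.00. At 4 h TCD read 1.96, 2.05 and 2.06, and RWV read 2.22, 2.13 and 2.13. At 24 h TCD read 1.77, 1.77 and 1.72, and RWV read 1.67, 0.94 and 1.44. All 12 cultured arrays lay above all 3 fresh arrays, and at 24 h every TCD array lay above every RWV array. Mt2 rose by 2.08 in TCD at 4 h (adjusted p = 0.000445), by 2.22 in RWV at 4 h (adjusted p = 0.000234), by 1.81 in TCD at 24 h (adjusted p = 0.000312) and by 1.41 in RWV at 24 h (adjusted p = 0.00253). With arrays centred on reference genes, whose own median change was 0.77 there, the last of these was 0.68 and was not called (adjusted p = 0.0619). The vessel difference was 0.14 at 4 h (adjusted p = 0.86) and -0.40 at 24 h (adjusted p = 0.488).

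The 2 probe sets of Mt1 went in opposite directions, so the direction of Mt1 is uncertain. By 1451612_at it read -3.65, -4.72 and -5.08 in TCD at 24 h and -1.45, -1.65 and -2.30 in RWV, against 0.00, -0.39 and 0.32 in fresh cells. At 4 h it read -1.24, -1.56 and -1.16 in TCD and -0.77, -0.09 and -0.52 in RWV, and the difference of 0.85 was not called (adjusted p = 0.193). By 1422557_s_at all 6 arrays of 4 h lay between 1.65 and 1.90, and Mt1 read 1.67, 1.67 and 1.62 in TCD at 24 h and 1.48, 0.88 and 1.34 in RWV. The first probe set put every TCD array at 24 h below every RWV array, and the second put every TCD array above them. Against fresh cells in TCD at 24 h the first fell by 4.46 (adjusted p = 3.59e-07) and the second rose by 1.47 (adjusted p = 1.67e-05).

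By 1451612_at the vessels differed by 2.68 ± 0.34 at 24 h (adjusted p = 0.000301), and this difference exceeded that at 4 h by 1.83 ± 0.49 (adjusted p = 0.0319, lost in 8 of 15 fits with 1 array left out, up to 0.0771). By 1422557_s_at they differed by -0.42 ± 0.18 (adjusted p = 0.147). The second probe set ran with Mt2 (r = 0.976), while the first did not (r = -0.308; n = 15, descriptions over arrays that share groups). Probe sets ending in s match several transcripts, so 1422557_s_at may also bind Mt2. The gap between the 2 probe sets was -3.03 ± 0.56 (SD, n = 3) in RWV and -6.14 ± 0.72 in TCD at 24 h, a description of probe sets picked because they disagreed.

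**Figure D4:**
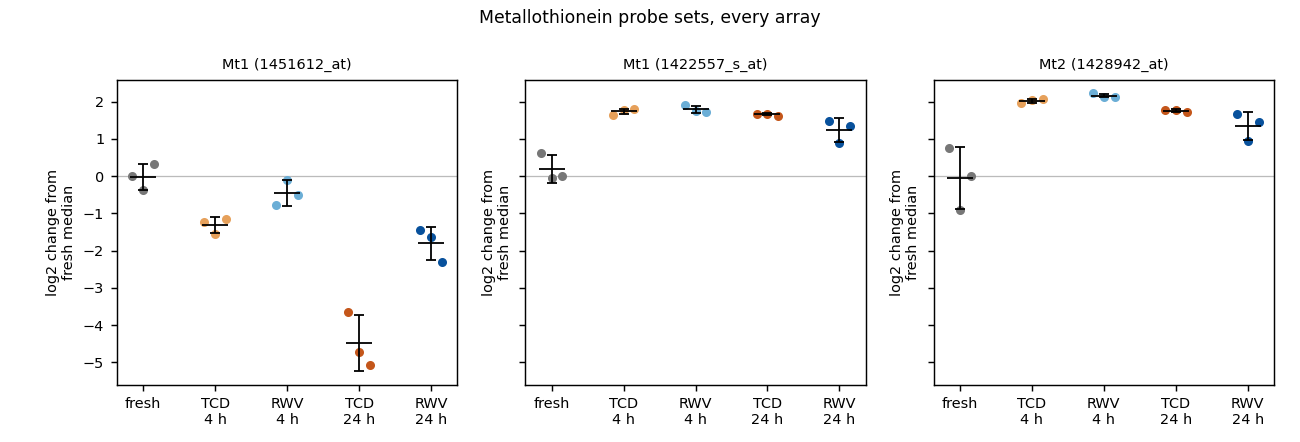
Log2 change from the fresh median (shared y axis) by group (x axis) for both Mt1 probe sets and that of Mt2. Points are single arrays, bars the mean and SD of 3. The left probe set of Mt1 falls in TCD at 24 h, and the other and Mt2 lie above 0 in all cultures.

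Slc30a1, which exports zinc, rose like Mt2. By 1422786_at it read 2.60, 2.55 and 1.94 in TCD and 2.68, 2.83 and 2.06 in RWV at 4 h. At 24 h TCD read 1.65, 1.70 and 1.55, and RWV read 2.05, 1.22 and 1.62. Every cultured array lay above the fresh arrays of 0.00, 0.50 and -0.40, and the vessels overlapped at both times. The rise was 2.33 in TCD (adjusted p = 8.18e-05) and 2.49 in RWV (adjusted p = 4.56e-05) at 4 h, and 1.60 in TCD (adjusted p = 0.000365) and 1.60 in RWV (adjusted p = 0.000487) at 24 h. The vessel difference was -0.00 at 24 h (adjusted p = 1), and the groups overlapped. From 4 h to 24 h it fell by 0.73 in TCD (adjusted p = 0.0469) and fell by 0.89 in RWV (adjusted p = 0.0241), calls that were lost in 8 and in 4 of 15 fits with 1 array left out. By the other probe set, 1436164_at, Slc30a1 read 1.21, 0.64 and 0.76 in TCD and 1.80, 1.62 and 1.24 in RWV at 4 h. At 24 h that probe set read 0.42 to 0.68 in TCD and 0.45 to 0.69 in RWV. It rose at 4 h by 1.16 in TCD (adjusted p = 0.0262) and by 1.84 in RWV (adjusted p = 0.00152), and its changes of 0.83 and 0.86 at 24 h were not called (adjusted p = 0.0546 and 0.0527).

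A list of 23 other genes of zinc transport and response had 19 tested members. Between the vessels at 24 h 1 was higher in RWV, Slc30a5 (0.50, adjusted p = 0.0281), beside 15.3% of all genes called either way. By limma 0 were lower (2 at an unadjusted p below 0.05), and the median was 0.00. At 4 h 1 was higher, beside 6.07% of all genes called either way. This was Mtf1, which encodes MTF-1 itself, by 0.94 ± 0.17 (adjusted p = 0.00859, median 0.08). Its arrays read -0.66, -0.68 and -1.20 in TCD and 0.10, 0.10 and 0.08 in RWV. All TCD arrays of Mtf1 at 4 h lay below all RWV arrays. From 4 h to 24 h the Mtf1 difference between vessels changed by -1.22 (adjusted p = 0.00746).

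Genes whose course over the 15 arrays was most like that of a member were named for 3 of them by Pearson's r. Pon1 (0.96), Ppp1r3c (0.96) and Sub1 (0.95) were closest to Hamp. Hsph1 (0.91), Rabep1 (0.90) and Stip1 (0.88) were closest to Tfrc, and Slc25a17, Aamdc and Zfand4 (each 0.96) to Mt1 by 1451612_at. All are descriptions over arrays that share groups and times.

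Hepatocyte markers were described as well, but without absolute levels they cannot check the label of the cells. Of 8 markers 7 were tested, and their mean change per array lay between -1.52 and -1.26 in TCD and between -1.99 and -1.55 in RWV at 24 h. Their median change was smaller, -0.51 in TCD and -0.59 in RWV. Tat changed most in TCD (-3.65) and Cps1 in RWV (-4.46), while Alb changed by -0.06 and -0.16, not called. Between the vessels at 24 h Cps1 was called lower in RWV (-1.55, adjusted p = 0.0101), and the other 6 were not called, beside 15.3% of all genes called. Of the 7, 6 fell in TCD and 5 in RWV at 24 h, the time at which Hamp fell, beside 56.1% and 49.8% of all genes called either way. Of the markers of other cell types, Krt19 (-4.31, adjusted p = 7.24e-05) and Epcam (-1.11, adjusted p = 0.00774) of 3 tested for cholangiocytes, Reln (-4.95, adjusted p = 1.41e-05) of 4 for stellate cells and Cd68 (-1.21, adjusted p = 0.000291) of 8 for macrophages were lower in RWV than in TCD at 24 h. The 8 macrophage markers had a median difference of 0.33. Marco (1.64), Cd5l (1.68) and Vsig4 (1.23) lay higher in RWV and Cd163 (-0.18) lower, none of them called. Cd68 itself stood 9.99 above fresh cells in TCD and 8.78 in RWV at 24 h. Krt19 changed from fresh by 4.24 in TCD and -0.07 in RWV, Epcam by 1.32 and 0.22, and Reln by 5.53 and 0.58. For Krt19, Epcam and Reln these changes were called in TCD and not in RWV. Sox9, the other cholangiocyte marker tested, differed by -1.85 between vessels and was not called. It stood 4.65 above fresh cells in TCD and 2.80 in RWV. The other stellate markers, Des, Rgs5 and Pdgfrb, differed by 0.01 to 0.04. The part of any of these markers in the changes of the 9 genes was not tested.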

How the data were processed

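Expression was measured on 15 Affymetrix arrays. The values were log2 signals that the authors deposited, made with GCRMA per the submitters' processing notes, with no version given there. The median of the 3 fresh arrays was 0 in all 45101 probe sets (tolerance 1e-06), so it had been subtracted. This was read from the values, and the log base was taken from GCRMA's scale.

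Probe sets with 1 symbol were used. A probe set counted as background if it had an SD below 0.5 and followed, with a correlation above 0.8, the per-array median of the least variable 20%, which left 22109 probe sets and 12424 genes. All 23 probe sets of the 9 genes remained, including 3 array controls for Tfrc. Group means were compared with limma 3.58.1 in R 4.3.3 (lmFit, contrasts.fit, eBayes), all 15 arrays in 1 fit with 10 residual degrees of freedom and Benjamini-Hochberg adjustment over all probe sets. Errors are SE from the fit unless SD is named. A gene was counted through its most variable probe set. On simulated data 60% of probe sets changed by 1 log2 unit and 90% of those changed by 2 were recovered in RWV against TCD at 24 h, with 22109 probe sets.

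Every measured member was named, as were list genes called between vessels, other genes of the hepcidin and storage lists, and the 3 genes most like Hamp, Tfrc and Mt1. The genes, lists and rules were chosen with earlier results of these data known. Symbols were updated through a RefSeq table (34754 of 34958 matched by Entrez number). Promoter windows came from RefSeq (GRCm38.p6); the files themselves name no build. Same-numbered replicates recur in every group. With group means removed, each of the 15 arrays correlated best with one sharing its number, and 5 of 10 group pairs had every such correlation above 0.1, among them fresh and TCD at 4 h. The replicate block was an alternative. Where it changed a call it stands beside the result if the pairing held between the groups compared, and otherwise in the closing section. Alternatives included the filter, the choice of probe sets, array weights, centring on 9 reference genes and leaving out each array.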

Additional observations from a re-analysis of the deposited data

Results flagged for a closer look

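In 5 probe sets the difference between vessels itself changed between 4 h and 24 h by the interaction term of limma. They were both probe sets of Hjv, with changes of 3.79 (adjusted p = 0.0135) and 3.52 (adjusted p = 0.0084), the 5′ control probe set of Tfrc with 0.89 (adjusted p = 0.025), 1427035_at of Slc39a14 with 1.25 (adjusted p = 0.0272) and 1451612_at of Mt1 with 1.83 (adjusted p = 0.0319). In each the RWV minus TCD difference was higher at 24 h. The other probe sets of Tfrc, Slc39a14 and Mt1 were not called. No group had the 4 arrays that a test for single outlying arrays would need.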

How the results depend on the processing

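Each of 81 differences (9 genes in 9 comparisons) was recomputed under 24 alternatives, 15 of them leaving out 1 array. Of 1944 values 1839 kept their side of the threshold, 63 lost the call, 34 gained one and 8 reversed. A reversal was counted where the sign changed and either fit gave a call. Among the 1839, differences called in neither fit could change sign, as that of Hjv between vessels at 4 h did (-0.26 to 0.42). All 8 reversals were of Mt1. With the mean of its probe sets Mt1 changed by 0.13 in TCD and 0.58 in RWV at 4 h against fresh cells. Counted through its other probe set, an alternative chosen after seeing the data, Mt1 differed by -0.42 between vessels at 24 h, its vessel difference changed by -0.48, and its changes from fresh were 1.55 and 1.61 at 4 h and 1.47 and 1.04 at 24 h, in TCD and RWV. The number of members called between vessels at 4 h was 0 with only the groups compared and 0 after centring on reference genes, since the Slc40a1 call was lost (adjusted p = 0.248 and 0.0709). Leaving out 1 array gave 0 to 1 members called at 4 h, 3 to 4 at 24 h, 1 to 3 for the change between times, 4 to 6 and 4 to 5 against fresh at 4 h in TCD and RWV, 7 in TCD and 5 to 6 in RWV at 24 h, 5 to 8 from 4 h to 24 h in TCD and 4 to 8 in RWV (4 without replicate 2 of RWV at 24 h). With the replicate block Hamp was called between vessels at 24 h (adjusted p = 0.0255), as it was with array weights (0.038) and with centring (0.0381). The same-number correlations between the 24 h groups were 0.125, 0.078 and 0.345. Pairing was taken to hold only where all of them exceeded 0.1. The block also gave calls for Slc39a14 in RWV at 24 h against fresh (-0.44, adjusted p = 0.0452) and for Mt2 from 4 h to 24 h in RWV (-0.81, adjusted p = 0.0401), likewise without a pairing that held. The blocked counts were 1 at 4 h, 4 at 24 h and 3 for the change between times. Centring moved the medians of all genes to between -0.72 and 0.02. The reference genes were not stable themselves. At 24 h against fresh cells 5 were called higher and 1 lower in TCD, and 6 higher and 1 lower in RWV. Signal over background was not kept in the values, so what it limits is not known.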
